A study of Mus musculus with 4 samples.

Results

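Transcripts of the Dlk1-Meg3 imprinted region on mouse chromosome 12 were measured in aortic vascular smooth muscle cells that either were wild type or lacked LAMP-2A. The region was defined by 7 genes, Begain, Dlk1, Meg3, Rtl1, Rian, Mirg and Dio3. A probe belonged to it when the RefSeq accession on the array carried the symbol of one of these genes in a gene table of the assembly GRCm38.p6. This gave 9 of 55679 probes and 6 of the 21367 genes that could be named. Rian was matched by no probe and was not analysed here.

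Imprinted genes are transcribed mainly from the copy inherited from 1 parent. In this region the paternal chromosome expresses the protein-coding genes Dlk1, Rtl1 and Dio3, and the maternal chromosome expresses the long non-coding RNAs Meg3, Rian and Mirg, which carry small nucleolar RNAs and microRNAs. DNA methylation of a control element between Dlk1 and Meg3 sets this choice, and the region is known for its part in fetal growth, adipogenesis and stem cells.

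The arrays held 4 groups, each with 1 array, and every cell came from C57BL/6J mice. WT control cells were wild type and received no LDL, and WT LDL cells were wild type with LDL. L2AKO control and L2AKO LDL cells came from LAMP-2A knockout mice. LAMP-2A, a splice form of Lamp2, is the membrane receptor through which chaperone-mediated autophagy brings proteins into lysosomes. Per the labels, the cultures derived from 5 aortas and were used at passages 12 to 16. All groups spent 24 h in medium with 5% lipoprotein-deficient serum, and the LDL groups received LDL at 150 µg/ml cholesterol with 0.1 U/ml bovine lipoprotein lipase. The labels do not settle whether lipase was also added without LDL. RNA was pooled in triplicate, so an array stands for 1 pool of 1 cell line per genotype. No spread between cultures can be given, no test was run, and the values compare these 4 pools.

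Levels are log2 processed signals minus the 75th percentile of the same array, and a difference is called at 2-fold or more. A probe was measured in a comparison when the scanner software marked it well above background on every array compared. Between 47.2% and 52.0% of probes were well above background on an array, and no spot was saturated. Spots printed repeatedly on an array differed with a median SD of at most 0.0537 on the log2 scale, which gives 0.0759 for a difference and covers technical spread within an array only. The L2AKO LDL array lay on slide 2 and the others on slide 1, so slide and group cannot be told apart in any comparison that uses it. The smooth muscle label was checked against 10 markers. Acta2, the smooth muscle actin, was bright on every array (7.39 in WT and 6.63 in L2AKO without LDL, 7.21 and 6.55 with LDL). Tagln (3.62 in WT and 4.89 in L2AKO without LDL), Smtn (4.17 and 3.18), Cnn1 (0.31 and 1.43) and Actg2 (-1.75 and -3.48) were also above background on every array. Mylk was above it on the WT control array only (-3.81). Myh11, Myocd, Des and Lmod1, which mark contractile smooth muscle, stayed below background on all 4 arrays. Lamp2, the targeted gene, had a probe at 6.29 and 6.38 in WT without and with LDL and at 6.33 and 6.09 in L2AKO. Its other probe stood at 3.68 and 3.74 in WT and at 2.30 and 2.41 in L2AKO. The sources used here do not place either probe in or out of the deleted part, so neither checks the labels.

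The sequences just before the start sites of Dlk1, Meg3 and Dio3 are shown because these genes represent both parental classes and both directions of the genotype difference. They are the 250 bases before the start in RefSeq on GRCm38.p6, 5′ to 3′ on the plus strand. Capitals mark the letters TATAAA, TGACGTCA and CCAAT, searched on both strands. For Meg3 the first of 2 start entries was used.
Dlk1, chr12:109452573-109452822, plus strand: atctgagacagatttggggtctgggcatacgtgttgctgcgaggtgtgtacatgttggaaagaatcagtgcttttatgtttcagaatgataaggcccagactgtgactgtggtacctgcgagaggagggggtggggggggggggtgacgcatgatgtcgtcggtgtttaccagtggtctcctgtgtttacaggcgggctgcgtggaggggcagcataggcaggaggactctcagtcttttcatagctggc
Meg3, chr12:109540746-109540995, plus strand: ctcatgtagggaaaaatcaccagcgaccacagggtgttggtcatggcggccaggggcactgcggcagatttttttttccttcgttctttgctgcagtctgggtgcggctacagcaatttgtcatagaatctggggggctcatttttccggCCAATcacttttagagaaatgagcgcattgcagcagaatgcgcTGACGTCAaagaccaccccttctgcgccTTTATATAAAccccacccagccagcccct
Dio3, chr12:110278980-110279229, plus strand: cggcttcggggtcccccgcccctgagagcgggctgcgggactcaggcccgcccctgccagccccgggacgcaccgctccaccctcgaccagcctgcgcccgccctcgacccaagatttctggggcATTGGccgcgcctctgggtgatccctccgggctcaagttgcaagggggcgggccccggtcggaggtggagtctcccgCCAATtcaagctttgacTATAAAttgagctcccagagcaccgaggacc
The Dlk1 window held none of these letters and 8 CG dinucleotides, the Meg3 window 10 and the Dio3 window 21, against a median of 6 over 32851 mouse promoter windows of the same length. The Meg3 window held TATAAA 25 bases before the start, overlapping a match on the other strand at 29 bases, TGACGTCA at 57 bases and CCAAT at 100 bases. The Dio3 window held TATAAA at 31 bases, CCAAT at 48 bases and CCAAT on the other strand at 125 bases. TATAAA was present in 12.4% of all windows, TGACGTCA in 1.55% and CCAAT in 33.8%, so only the palindrome in the Meg3 window is a rare string, and a match of letters shows no bound factor.

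The non-coding RNA Meg3 was far higher in L2AKO cells on each of its 3 probes, with and without LDL. Its brightest probe, A_51_P455997, read 0.94 on the WT array without LDL and -0.41 on the WT array with LDL, against 6.57 and 6.82 on the L2AKO arrays. The processed signals behind these values were 611 and 279 in WT and 37059 and 48937 in L2AKO. Both L2AKO arrays lay far above both WT arrays, with no overlap between the lines. The genotype difference was 5.63 without LDL (49.6-fold) and 7.23 with LDL (150-fold). Among all measured probes this was the 8th highest difference of 24340 without LDL and the 3rd highest of 25593 with LDL. The probe A_55_P2033407, matched to the same accession, read -3.21 and -4.12 in WT and 3.05 and 3.11 in L2AKO, each time without and then with LDL. It too separated the lines, by 6.25 without LDL (76.4-fold, the highest of all) and 7.24 with LDL (151-fold). The WT LDL value lay just above the lowest value well above background on that array, -4.40, so this last ratio rests on a dim spot. After normexp background correction and quantile normalisation this probe differed by 4.92 without LDL and 5.43 with LDL.

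The remaining Meg3 probe, A_52_P196568, belongs to another RefSeq accession of the gene and was dim. It read -6.03 and -6.59 on the WT arrays, not well above background, and -0.47 and -0.44 on the L2AKO arrays. For such probes a bound is given in place of a fold: the bright value over the dim array's own value or its lowest value well above background, whichever is larger. By this bound Meg3 was at least 13.6-fold higher in L2AKO without LDL and at least 15.6-fold higher with LDL. After normexp and quantile normalisation its difference was smaller than these bounds, 2.29 without LDL and 2.40 with LDL.

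Mirg, the host RNA of a microRNA cluster at the far end of the maternal transcripts, was higher in L2AKO as well. Its probe read -1.08 and -1.47 in WT without and with LDL, and 3.48 and 3.31 in L2AKO. Both L2AKO arrays were the higher ones. The difference was 4.56 without LDL (23.7-fold, rank 19 from the top) and 4.79 with LDL (27.6-fold, rank 18). Meg3 and Mirg, at both ends of the row of maternal non-coding RNAs, thus lay on the same side in both conditions.

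The gene table lists 106 genes from Begain to Dio3, 61 of them microRNAs and 19 small nucleolar RNAs. None of these small RNAs had a probe, so their levels were not analysed here. The RefSeq microRNA table holds 58 hairpins with 114 mature sequences in the region, and 10 hairpins with 19 mature sequences lie within Mirg. These 19 carry 18 different seeds, the bases 2 to 8 that pair with targets. Capitals mark the seeds below. The first pair of microRNAs shares its seed, and 2 others of the cluster are shown for contrast.
mmu-miR-453: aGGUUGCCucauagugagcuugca
mmu-miR-496a-5p: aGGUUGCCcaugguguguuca
mmu-miR-410-3p: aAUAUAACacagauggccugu
mmu-miR-154-3p: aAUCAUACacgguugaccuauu

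Dlk1 is a membrane protein related to Notch ligands that holds back fat cell differentiation and is normally transcribed from the paternal copy. Its probe A_66_P117477 read 1.20 and 0.90 in WT without and with LDL and 4.46 and 4.26 in L2AKO, from signals of 732, 692, 8593 and 8297. Its probe A_55_P2105371 read -2.19 and -2.38 in WT and 1.34 and 1.57 in L2AKO. On both probes both L2AKO arrays were the higher ones. The genotype difference was 3.26 without LDL (9.61-fold) and 3.36 with LDL (10.2-fold) on the first probe. On the second it was 3.53 (11.6-fold) and 3.95 (15.4-fold), or 2.72 and 3.16 after normexp and quantile normalisation.

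Begain, which encodes a protein associated with synaptic guanylate kinases and starts the region, had the smallest difference among the measured members. It read -1.58 and -1.69 in WT without and with LDL, and 0.35 and 0.25 in L2AKO. The L2AKO arrays were again the higher ones, by 1.93 without LDL (3.81-fold) and 1.95 with LDL (3.86-fold). Rtl1, a retrotransposon-derived gene needed in the placenta, had a single probe, which stayed below background at -6.37 and -6.52 in WT and -6.38 and -7.24 in L2AKO. No fold is given for it.

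Dio3 encodes the deiodinase that inactivates thyroid hormone and lay in the opposite direction. It read -0.28 and -0.24 on the WT arrays, without and with LDL, against -4.85 on the L2AKO LDL array, where it was just above background. On the L2AKO control array it read -5.86, under that array's lowest well-measured value of -4.33. The processed signals were 262 and 314 in WT and 6.72 and 15.1 in L2AKO. The WT arrays were high and both L2AKO arrays low. Without LDL the level in L2AKO was lower by at least 16.5-fold. With LDL the difference was -4.60 (24.3-fold), the 35th lowest of 25593. After normexp and quantile normalisation the differences were smaller, -2.54 without LDL and -2.46 with LDL. Dio3os, the antisense RNA transcribed next to Dio3, had the same order, with -0.93 and -0.80 on the WT arrays and -5.54 and -5.84 on the L2AKO arrays, both below background. Its L2AKO level was lower by at least 10.5-fold without LDL and at least 19.4-fold with LDL. The genes lie on opposite strands, and whether their probes share signal was not tested. Of the other non-coding transcripts in the region, 6430411K18Rik and 3110009F21Rik stayed below background.

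**Figure D1:**
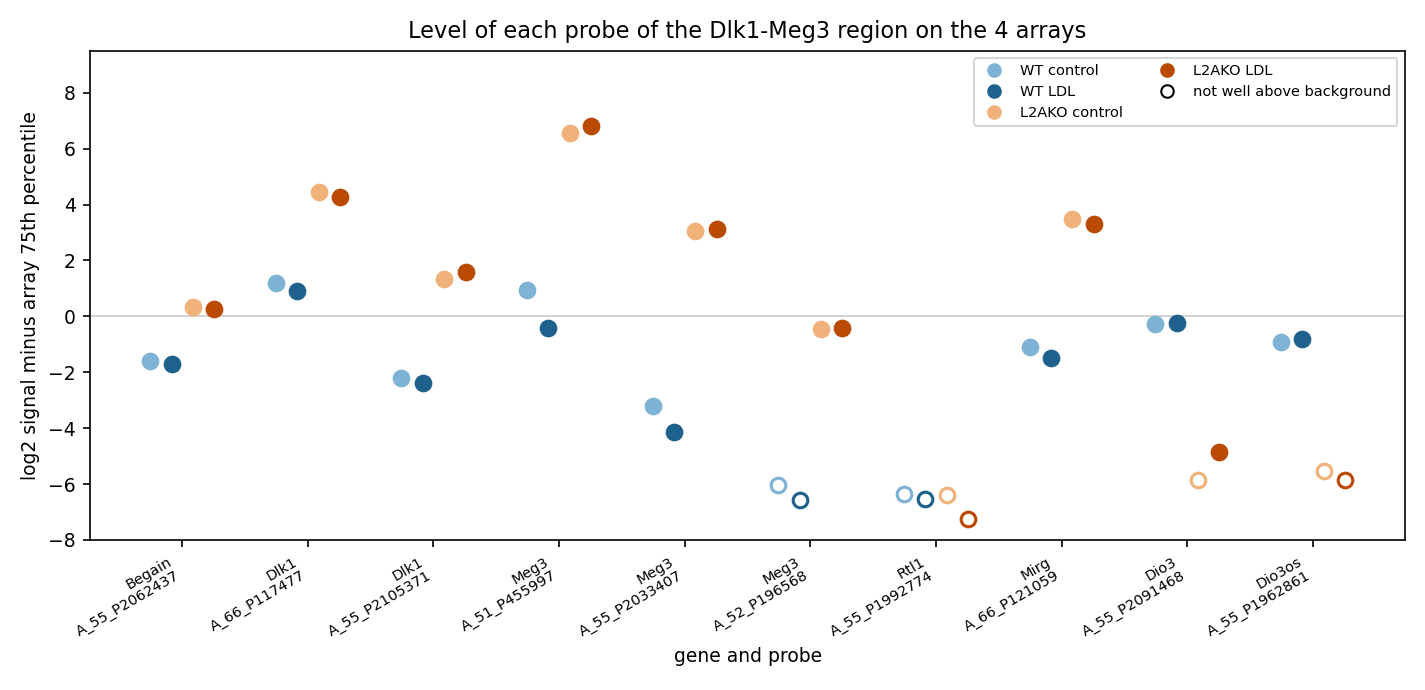
Normalised log2 level (vertical axis) of each probe of the region, with Dio3os added, on the 4 arrays; open points were not well above background. Probes of Begain, Dlk1, Meg3 and Mirg lie higher on both L2AKO arrays, Dio3 and Dio3os lie lower, and Rtl1 is below background throughout.

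Of the 9 member probes, 6 were measured without LDL, all on the higher side in L2AKO past 2-fold. Over all measured probes 6.42% passed 2-fold upward and 6.87% downward. With LDL 7 member probes were measured, 6 past 2-fold upward and Dio3 downward, against 7.81% and 9.22% of all probes. The median over the measured members was 4.05 without LDL and 3.95 with LDL, and over all measured probes it was -0.01 and -0.05. The region was chosen with such values known, so the counts describe it and support nothing.

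**Figure D2:**
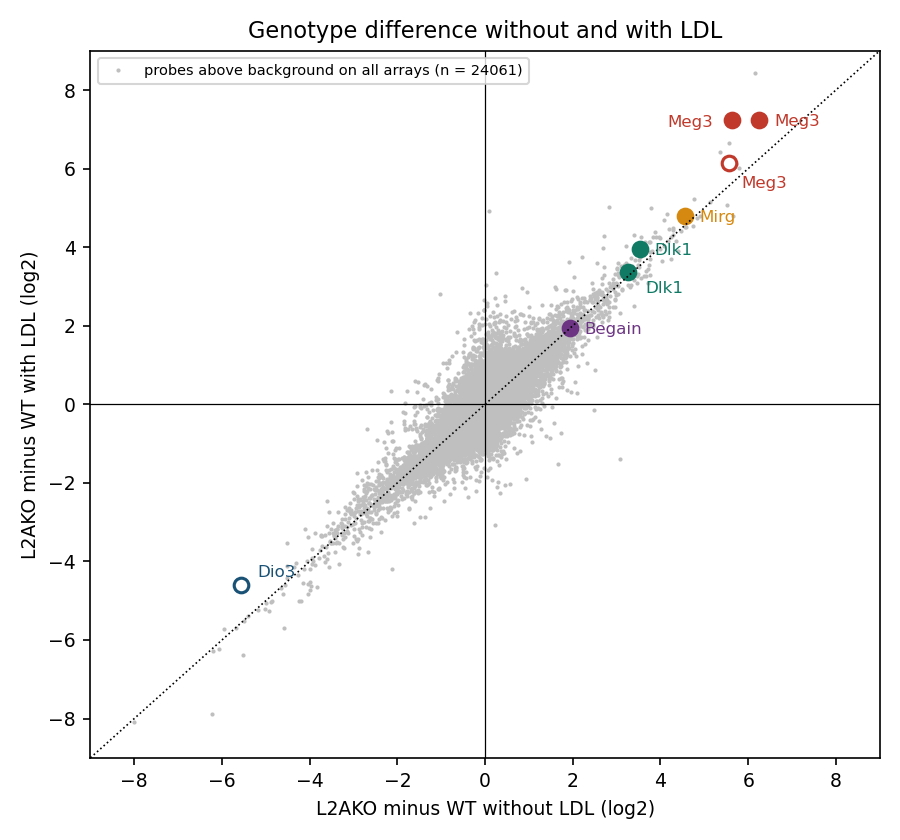
Genotype difference in log2 units without LDL (horizontal axis) and with LDL (vertical axis) for the 24061 probes above background on all arrays in grey and for members in colour; open points were below background on at least 1 array and mark values that are no measured ratio. Both Meg3 probes above background lie at the upper edge of all probes, at 5.63 and 6.25 without LDL, and lie above the dotted line of equal differences.

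Chromosome 12 as a whole was also higher in L2AKO. Genes were represented here by their brightest probe. Leaving out the members, 356 of 412 measured genes on chromosome 12 lay above 0 without LDL, with a median of 0.89. With LDL 365 of 427 did, with a median of 0.79. The medians of the other 19 chromosomes ranged from -0.53 to 0.34 without LDL and from -0.70 to 0.27 with LDL. Without LDL 165 chromosome 12 genes, or 40.0%, passed 2-fold upward, against 7.56% of all genes, and 10 passed it downward, against 8.21%. With LDL 149 passed it upward and 18 downward, against 8.3% and 10.4% of all genes.

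The shift ran along the whole chromosome. Cut into 4 equal blocks in gene order, it had block medians of 0.85, 0.97, 0.91 and 0.79 without LDL. The 20 nearest protein-coding neighbours, 10 on each side of the region, had a median of 0.48 without LDL over 17 measured genes, with 4 past 2-fold upward and 0 downward. They ranged from -0.63 for Evl, a regulator of actin filaments, to 1.69 for Wdr25, and Wars, a tRNA synthetase, stood at 1.47. With LDL the 17 measured neighbours had a median of 0.39, ranged from -0.87 to 1.85, and 5 passed 2-fold upward.

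Measured against the chromosome 12 median without LDL, Begain stood 1.03 above it, Dlk1 2.37 and 2.64, Mirg 3.67 and Meg3 4.74 and 5.36. With LDL these values were 1.15 for Begain, 2.56 and 3.15 for Dlk1, 3.99 for Mirg and 6.43 and 6.44 for Meg3. Dio3 was -5.40 from the chromosome median with LDL, on the other side of it. The part of the chromosome-wide difference in the values of the members was not tested. For LDL minus control the chromosome 12 medians were -0.04 in WT and -0.09 in L2AKO, beside -0.05 and -0.08 for all genes.

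**Figure D3:**
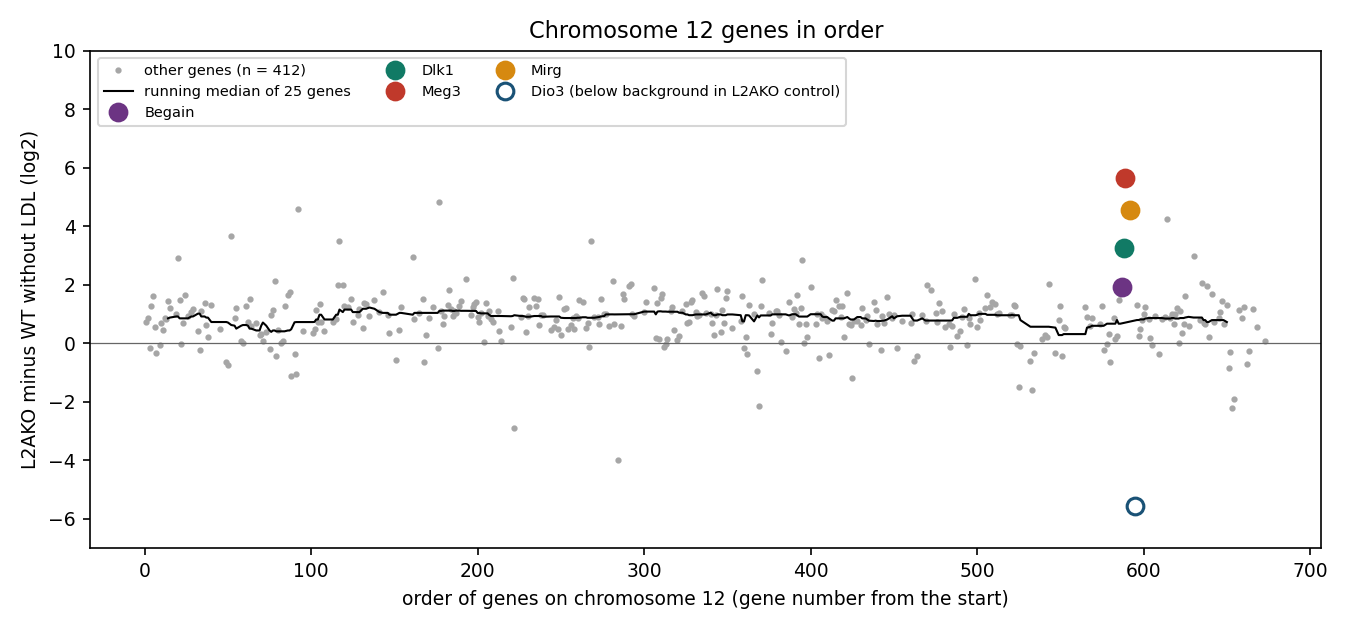
Genotype difference without LDL in log2 units (vertical axis) for the measured genes of chromosome 12 in gene order (horizontal axis), with members in colour and a running median of 25 genes as a line. The line stays above 0 along the chromosome, whose median is 0.89, and Meg3, Mirg and Dlk1 stand above the genes around them while Dio3, whose open point was below background in L2AKO control, stands below.

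Differences with LDL were small across the region in both lines, apart from Meg3 in WT. There the brightest Meg3 probe was 2.55-fold lower with LDL (-1.35) and the next 1.89-fold lower (-0.92). Over the scalings tried the brightest probe ranged from -1.35 to -1.08. The next ranged from -0.92 to -0.40, and its WT LDL spot was dim. In L2AKO the same probes differed by 0.25 and 0.07, and the third Meg3 probe by 0.03. Dlk1 differed by -0.30 and -0.18 in WT and by -0.21 and 0.23 in L2AKO on its 2 probes. Mirg differed by -0.39 and -0.17, and Begain by -0.11 and -0.09, in WT and L2AKO. The values for Begain and the brighter Dlk1 probe in L2AKO were at or above 0 under some scalings, up to 0.01. Dio3 differed by 0.04 in WT, and in L2AKO its level without LDL was below background. The LDL difference of Dio3 in L2AKO is therefore not measured.

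At 2-fold, 1 of 7 measured member probes was lower with LDL in WT, where 0.973% of all probes were, and 0 were higher, where 0.344% were. In L2AKO 0 of 7 were higher and 0 lower, against 1.44% and 1.48% of all probes. The member medians were -0.30 in WT and 0.03 in L2AKO, beside -0.03 and -0.06 over all probes.

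**Figure D4:**
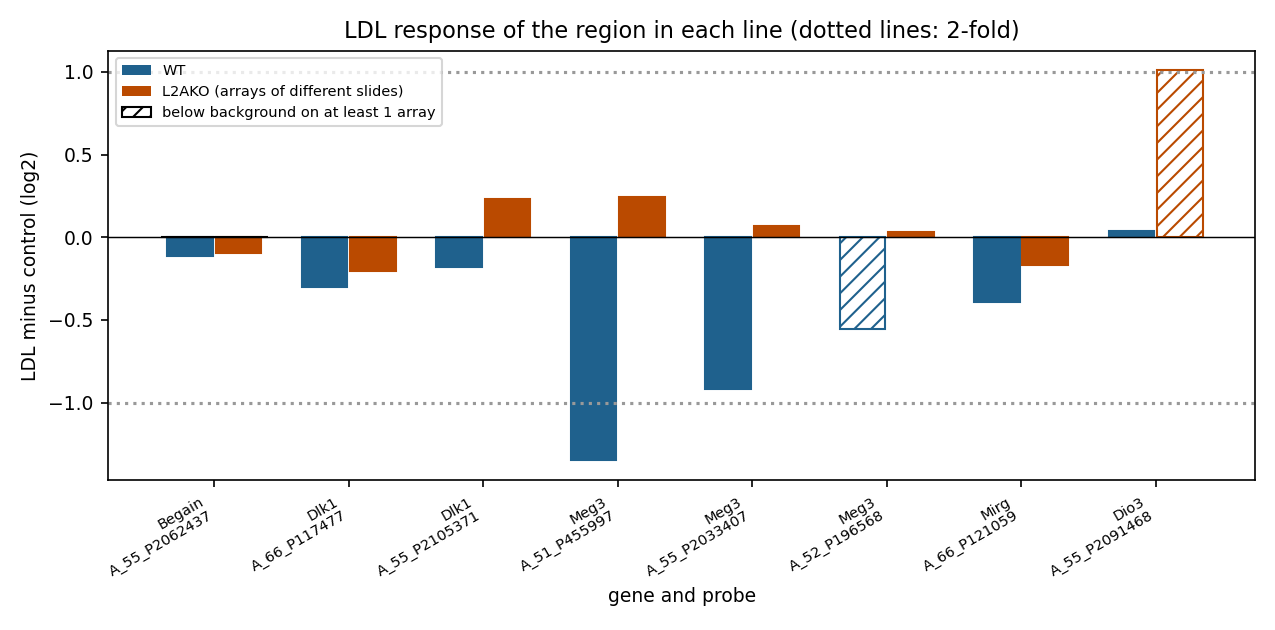
LDL minus control in log2 units (vertical axis) for each member probe in WT and L2AKO, with 1 array per group and 2-fold as dotted lines; hatched bars involve an array below background and are no measured ratio. The WT bar of the brightest Meg3 probe, at -1.35, is the only filled bar past 2-fold.

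The difference of these responses, L2AKO minus WT, was 1.60 for the brightest Meg3 probe, the 114th highest of 24061 probes, and 0.98 for the next. For Dlk1 it was 0.09 and 0.42, for Mirg 0.22 and for Begain 0.02. At 2-fold 1 of 6 measured member probes was higher, where 2.11% of all probes were, and 0 were lower, where 1.27% were. The value of the brightest Meg3 probe stayed between 1.32 and 1.70 over all settings tried, and that of the next between 0.51 and 1.09. Both use all 4 arrays, the array of slide 2 among them.

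Many probes of the array carry no gene name but the position of an interval on mm9, with the suffix F or R. An interval on chromosome 12, chr12:110973190-110987668, has the same width as Mirg in the gene table, 14478 bases. On the array 2 intervals have that width, and in the gene list 3 genes have that length. The window of 500000 bases on either side of this interval was examined after the values were seen. Positions of the 2 builds are not comparable, and whether the intervals overlap members was not looked up for want of an mm9 annotation.

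Of 104 interval probes in this window, 21 (20.2%) were well above background on both L2AKO arrays and on neither WT array, against 1.72% of all 16180 such probes on the array. The reverse pattern was seen for 0 in the window and 0.544% overall. Suffix F held 18 of the 21, out of 62 probes (29.0%), and suffix R held 3 of 42 (7.14%). In numbers above background, suffix F had 12 probes on WT control, 11 on WT LDL, 32 on L2AKO control and 36 on L2AKO LDL. Suffix R had 3, 3, 7 and 11 in that order. The window was chosen around a match in width, so these shares describe it. Chromosome 12 as a whole was higher in L2AKO, and the share over its other interval probes was not counted. The interval probes that separate the lines overlap in position, and several intervals contain others, so they are not independent of each other.

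The clearest interval was chr12:110894095-110899517, suffix F. Its probe A_30_P01026799 read -3.27 and -4.75 in WT without and with LDL, and 1.40 and 1.90 in L2AKO. Its other probe, A_30_P01032789, read -4.20 and -5.92 in WT and 0.75 and 0.89 in L2AKO, so both L2AKO arrays stood far above both WT arrays. The WT LDL values of both and the WT control value of the second were not well above background. In the interval as wide as Mirg, A_30_P01019435 was above background on all arrays (-0.69, -0.37, 0.63 and 0.88). A_30_P01026190 read -5.59 and -5.50 below background in WT, against -0.02 and 0.19 in L2AKO. In chr12:110944403-110988678, suffix F had 10 probes, of which 1, 1, 7 and 10 were above background on WT control, WT LDL, L2AKO control and L2AKO LDL. For suffix R of the same interval these numbers were 0, 0, 2 and 2 of 10. Signal in the interval thus lay mostly with 1 of the 2 suffixes, and mostly in L2AKO.

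**Figure D5:**
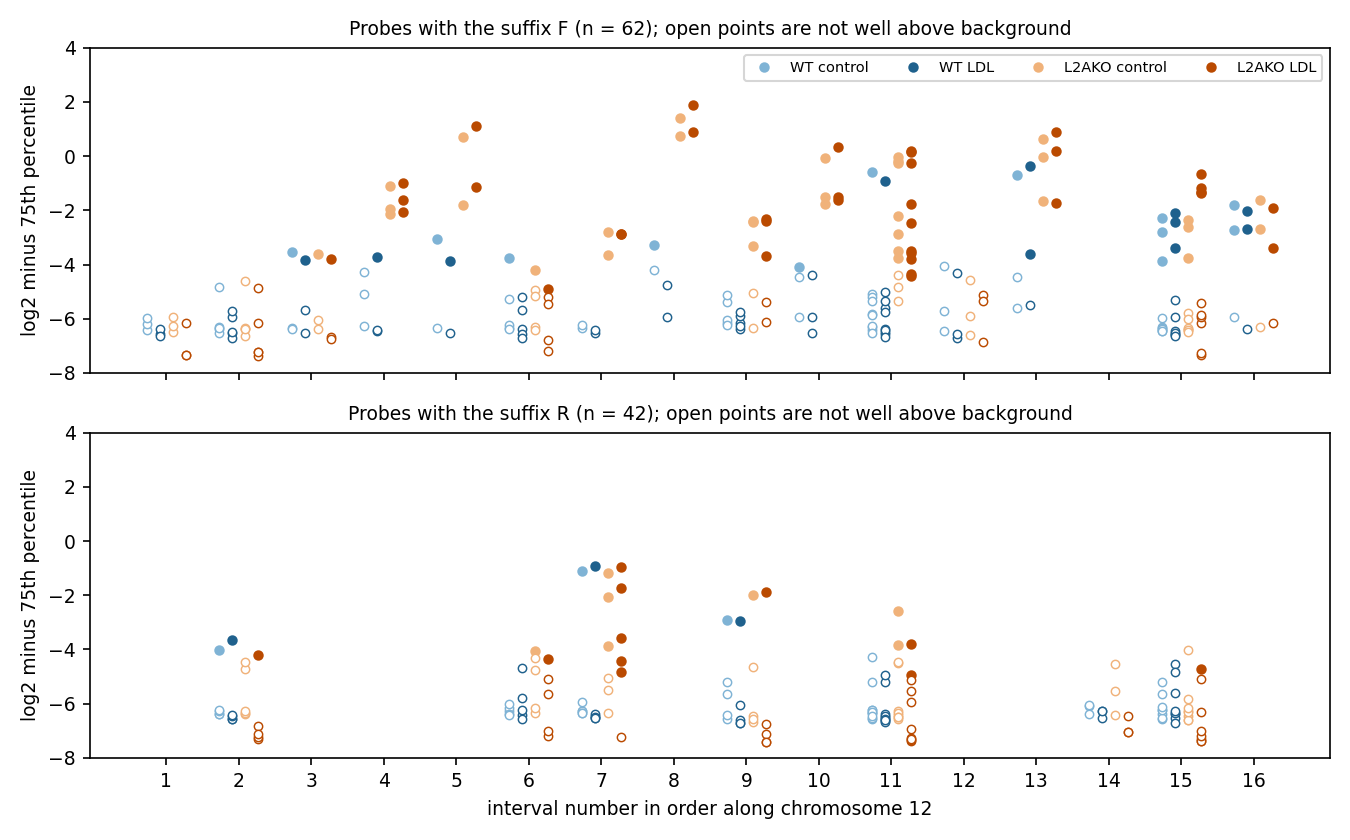
Normalised log2 level (vertical axis) of interval probes by interval number along chromosome 12 (horizontal axis), suffix F above and suffix R below, on the 4 arrays. Filled points, well above background, are mostly L2AKO in the middle intervals of suffix F, where 18 of 62 probes were above background in both L2AKO arrays and in neither WT array.

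Genes that set, keep or read imprints were then examined as a list of 17, with 15 measured without LDL. Of these 0 passed 2-fold upward and 2 downward in L2AKO, against 7.56% and 8.21% of all genes, with a median of 0.02 beside -0.01 for all genes. Uhrf1, which brings DNA methyltransferase to newly copied DNA, read 3.19 and 2.87 in WT without and with LDL and 0.83 and 0.58 in L2AKO, a difference of -2.36 without LDL. Dnmt1, the maintenance methyltransferase, read 0.72 and 0.61 in WT and -0.41 and -0.64 in L2AKO, a difference of -1.13. Both L2AKO arrays were the lower ones for both genes. Dnmt3a, a de novo methyltransferase, differed by 0.56, and Zfp57, a zinc finger protein that protects imprints, by 0.32. Aff3, known to bind the control element of the region, read -1.62 and -1.58 in WT, -4.33 in L2AKO control, below background, and -3.64 in L2AKO LDL.

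Polycomb repressive complex 2, which writes the repressive mark H3K27me3 and is known to bind Meg3 RNA, had 10 of 10 members measured. Without LDL 0 passed 2-fold upward and 1 downward, with a median of -0.08, and 1 of 10 is near the 8.21% of all genes. That member was Phf19, an accessory subunit, at 0.23 and -0.11 in WT and -3.69 and -4.09 in L2AKO. The catalytic subunit Ezh2 differed by -0.24. Levels in L2AKO were thus low for an accessory subunit and near those of WT for the enzyme.

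Partners and targets of Dlk1 had 13 of 20 listed genes measured without LDL, 1 past 2-fold upward and 1 downward (median -0.12), near the 7.56% and 8.21% of all genes. Pparg, the master regulator of fat cells, was the higher one, at 1.76 and 1.99 in WT and 3.62 and 3.66 in L2AKO. Dlk2, the paralogue of Dlk1, was the lower one among the measured genes, at 2.47 and 2.16 in WT and 0.73 and 0.25 in L2AKO. Both L2AKO arrays were the higher ones for Pparg and the lower ones for Dlk2. Some genes left out by the background filter were also lower in L2AKO. The Notch ligand Dll1 read -2.75 and -3.20 in WT and, below background, -6.42 and -6.20 in L2AKO. Without LDL, Jag2 read -2.84 and Cebpa -3.22 in WT, against -4.44 and -5.89, below background, in L2AKO. Dll4, Hey1, Hey2 and Heyl stayed below background on all arrays. Adam17, the protease that sheds Dlk1, differed by -0.45. Adipoq and Plin1, which mark mature fat cells, stayed below background.

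Thyroid hormone genes had 10 of 16 members measured without LDL, 1 past 2-fold upward and 1 downward (median 0.08), again near the shares of all genes, 7.56% and 8.21%. Ncoa1, a coactivator, differed by 1.45 and Hr, a corepressor, by -2.00. Dio2, which activates the hormone that Dio3 inactivates, was below background in WT (-6.42 and -4.86) and dim in L2AKO (-3.69 and -4.36). Dio1 was below background on all arrays. Crym, a binding protein of the hormone, was below background in WT (-6.50 and -6.67) and read -3.08 and -4.59 in L2AKO. The receptor Thrb differed by -0.95 without LDL.

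With LDL, the genotype counts were 1 upward and 3 downward of 16 imprint genes, 0 and 1 of 10 polycomb genes, 1 and 2 of 15 Dlk1 partners, and 1 and 2 of 10 thyroid hormone genes. Over all genes 8.3% passed upward and 10.4% downward. The upward imprint gene was Tet3, a demethylating enzyme, at 1.28, and Aff3 joined Uhrf1 and Dnmt1 on the other side at -2.06. The additions among Dlk1 partners and thyroid hormone genes were Jag2, a Notch ligand, at -1.73 and Thrb at -1.11. Jag2 was dim on the L2AKO LDL array, on slide 2. Its value there, -4.91, lay just above that array's lowest value well above background, -5.08. For LDL minus control in WT, 0 genes on these 4 lists passed 2-fold, where 1.27% of all genes did. In L2AKO 2.26% of all genes passed it, and on the lists Crym, at -1.51, was among those that did.

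Markers of other cell types also differed between the lines, and their part in the values of the region was not tested. In bulk RNA, fewer cells of a type and less RNA per cell cannot be told apart. Over all genes 7.56% passed 2-fold upward and 8.21% downward in L2AKO without LDL, and 8.3% and 10.4% with LDL. A summed level is the sum of linear signals over a list relative to the array's 75th percentile. For adventitial fibroblast markers it was 439 and 385 in WT and 288 and 241 in L2AKO, with 8 of 9 measured without LDL, 3 past 2-fold upward and 2 downward. Serpinf1 (4.28) and Pi16 (4.14) were among the upward ones and Dcn (-1.69) among the others. For fat cell markers it was 5.81 and 7.13 in WT and 17.5 and 18.3 in L2AKO, with 3 of 8 measured, 2 past 2-fold upward (Pparg and Fabp4) and 0 downward. Zfp423 and Cebpa lay the other way without LDL, at -1.94 and -3.22 in WT and, below background, -4.46 and -5.89 in L2AKO. With LDL 5 of 8 fat cell markers were measured, 2 upward and 1 downward (Zfp423, -2.71), with a median of -0.37. For mesothelial and epithelial markers it was 63.8 and 59.1 in WT and 19.8 and 23.1 in L2AKO, with 7 of 9 measured, 2 upward and 4 downward. For smooth muscle markers it was 199.7 and 176 in WT and 141 and 136 in L2AKO, with 5 of 10 measured, 2 upward (Tagln and Cnn1) and 1 downward (Actg2). Of 9 skeletal myoblast markers 1 was above background, Pax3, at a difference of -3.71, and Myod1, Myog, Pax7 and Myf5 stayed below it. Of 8 macrophage markers 4 to 5 were above background on an array, with summed levels of 37.8 and 32.7 in WT and 34.8 and 51.2 in L2AKO. Itgam (4.82 in WT and 4.66 in L2AKO without LDL), Cd14 (2.82 and 2.19), Csf1r (0.82 and 1.34) and Cd68 (-0.66 and 1.20) were among them, while Ptprc and Adgre1 stayed below background. Of 8 endothelial markers 3 to 4 were above background, with summed levels of 9.20 and 6.997 in WT and 11.2 and 11.3 in L2AKO. Kdr (2.45 and 2.07 without LDL) and Egfl7 (1.79 and 2.74) were among them, while Cdh5, Tek, Emcn and Erg stayed below background.

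Genes most like Meg3 and Mirg over the 4 arrays were found by the Euclidean distance between values centred on their own mean, among 12487 other genes above background on all arrays. For Meg3, with a range of 7.23, the nearest was Ccn3, a matrix protein of the CCN family, at a distance of 0.44, with levels of -1.99 and -3.26 in WT and 3.57 and 3.40 in L2AKO. Adora2b, an adenosine receptor, followed at 0.87, and Col3a1, a fibrillar collagen, at 1.03. S1pr3, a sphingosine phosphate receptor, lay at 1.55 and Tro at 1.59. Ccn3 and Col3a1 were also lower with LDL in WT, by -1.27 and -2.15. For Mirg, with a range of 4.96, the nearest were Cryzl2 (0.18), Ctsk, a collagen-degrading cathepsin (0.21), Rnf144a (0.27), Serpinf1 (0.31) and Pi16 (0.32). Each of these 5 was nearer to Mirg than any member of the region was. They were picked as the nearest of 12487 genes, so this says nothing about the region. Within the region Dlk1 and Mirg lay 1.37 apart, Begain and Dlk1 1.38, Meg3 and Mirg 1.90, Begain and Mirg 2.75, Dlk1 and Meg3 3.22, and Begain and Meg3 4.58. These distances are over 4 arrays that the genes share, and serve as a description.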

How the data were processed

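RNA of 4 pools was hybridised to Agilent mouse 8x60K arrays with 1 colour, with 1 µg of total RNA and 0.6 µg of labelled RNA per the labels. The deposited scanner files hold a processed intensity on a linear scale for 62976 spots, already corrected for background, per the file headers, which name Agilent Feature Extraction 10.7.3.1. The build named in the files is mm9. The authors' deposited value table holds a linear signal with column medians of 57.6, 57.6, 57.5 and 57.4, and its scaling is unknown. RMA and oligo are the tools listed in the submitters' processing notes.

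Control spots and outlier spots were left out, repeated spots were averaged on the log2 scale, and the array's 75th percentile was subtracted (318.8, 370.6, 389.4 and 433.8 as signals). The deposited intensity is thus reported as log2 values computed here. Well-above-background flags are those deposited by the authors, in the scanner files. Of 55679 probes, 28330 matched 1 gene and 27349 none. A gene outside the region is represented by its brightest probe.

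The 5 comparisons are differences of single arrays, with calls at 2-fold. Alternatives were other scalings, quantile normalisation, normexp with an offset of 50 on the median spot signal, the deposited table, other background filters and calls at 1.5-fold. Every member probe is reported. Lists, neighbours and likeness followed written rules, with up to 4 genes of a list named by difference, and further list members named for their role; some list results are not reported here. Members and lists were chosen with earlier results of these data known, and the interval window, the chromosome comparison and its blocks after their values were seen. Steps were tested on simulated data. Python 3.11.15, numpy 2.4.6, pandas 2.3.3, matplotlib 3.10.9, R 4.3.3 and limma 3.58.1 were used.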

Additional observations from a re-analysis of the deposited data

Results flagged for a closer look

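In 3 member probes the LDL difference had opposite signs in the lines, which was not tested, since each group had 1 array and the L2AKO pair spans slides. The brightest Meg3 probe, A_51_P455997, differed by -1.35 in WT and 0.25 in L2AKO, and A_55_P2033407 by -0.92 and 0.07. Each Meg3 value kept its sign under all settings tried, though that of A_55_P2033407 in WT ranged from -0.92 to -0.40. The dimmer Dlk1 probe, A_55_P2105371, differed by -0.18 and 0.23, and also kept both signs. The brighter Dlk1 probe was at -0.30 and -0.21, so the Dlk1 probes do not show the same pattern.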

How the results depend on the processing

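Over the settings tried, no genotype difference of a measured member changed sign. Without LDL, Meg3 ranged from 5.52 to 5.72 and from 4.92 to 6.34 on its brighter probes, Mirg from 4.04 to 4.65, Dlk1 from 3.14 to 3.35 and from 2.72 to 3.62, and Begain from 1.54 to 2.02. With LDL Meg3 ranged from 6.84 to 7.43 and from 5.43 to 7.44, and Dio3 from -4.60 to -2.46.

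Member counts past 2-fold moved in few settings. In WT, 2 were lower with LDL at 1.5-fold. When a probe needed 1 array above background, or none, Dio3 added 1 higher with LDL in L2AKO and 1 lower in L2AKO without LDL, and the third Meg3 probe brought those higher in L2AKO to 7, without and with LDL. With all 4 arrays required, 0 were lower in L2AKO with LDL. In the difference of responses, 2 were higher under median scaling, scaling over commonly measured probes, quantile normalisation and 1.5-fold.

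Counts over all probes moved more. For LDL in WT, 333 probes became 121 after normexp, 141 in the deposited table, 1841 with 1 array above background, 4576 unfiltered and 1113 at 1.5-fold. For LDL in L2AKO, 745 became 277, 336, 2372, 5410 and 2658 in that order. For the genotypes without LDL, 3234 became 2011 after normexp, 6080 with 1 array above background, 9136 unfiltered and 7043 at 1.5-fold, and with LDL 4358 became 2529, 7375, 11086 and 9408. For the difference of responses, 812 became 263 after normexp, 341 in the deposited table, 4390, 8824 and 3050. Apart from filters and thresholds, the cause was not tested. Median scaling moved the median of all probes from -0.05 to 0.15 for the genotypes with LDL, and the share higher from 45.9% to 62.8%. In WT the share higher was 26.1% in the main setting, 12.4% after normexp and 49.2% with 1 array above background. For LDL in L2AKO it went from 49.4% to 63.5% under median scaling and 34.8% unfiltered, and for the difference of responses from 62.4% to 75.6% under median scaling, 81.0% after normexp and 41.0% unfiltered.

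Matching by a gene name column was not run. The scanner files used here hold none. No paired analysis was possible because each group has 1 array, which also leaves no replicate to drop.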

Other observations

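Within the window around the Mirg-wide interval, an interval held some probes that were high with LDL in L2AKO alone. In chr12:111287772-111333890, suffix F, the probe A_30_P01021913 read -6.41, -6.56 and -6.34, below background, in WT control, WT LDL and L2AKO control, and -1.33 in L2AKO LDL. A_30_P01024078 read -3.86, -3.41, -3.76 and -1.37, and A_30_P01026947 read -2.79, -2.45, -2.62 and -0.65. A_30_P01030769 read -2.30, -2.10, -2.35 and -1.16. The other 6 probes of that suffix were not well above background on any array. These probes were picked after their values were seen, and the high array is the only one on slide 2, so slide and group cannot be told apart.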
